A study of Homo sapiens with 6 samples.

Results

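Sequential chromatin immunoprecipitation, reChIP-seq, was used to ask where H2AK119ub and H3K4me3 sit on the same stretches of chromatin. The peaks described here come from the order in which chromatin of NCI-H661 cells was first pulled down with an antibody to H2AK119ub and then with one to H3K4me3, abbreviated K119-K4. They were set against chromatin taken through both rounds with IgG, abbreviated IgG-IgG. NCI-H661 is an established human large cell lung carcinoma line, and both groups were the parental line with no treatment named in the labels, at 1000000 cells per reChIP. Each group had 2 libraries, so 4 of the 6 samples of the series were used.

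H3K4me3, a trimethylated lysine of histone H3, is deposited by the COMPASS family of methyltransferases and marks CpG-rich starts of genes. H2AK119ub, a monoubiquitinated lysine of histone H2A, is placed by Polycomb repressive complex 1 through its RING1 or RNF2 subunit and is removed by BAP1 and other deubiquitinases. The marks are known to meet at developmental genes, and a reChIP is meant to recover fragments that carry both. The IgG-IgG libraries were measured the same way and give the background of the procedure.

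K119-K4 peaks of 10 or more reads on chromosomes 1 to 22 and X lay mostly within 1500 bp of an annotated protein-coding start. IgG-IgG had next to no peaks of that size. K119-K4 had 9872 of them among 147715 peaks in replicate 1 and 6434 among 189880 in replicate 2. IgG-IgG replicate 1 had 1 among 28626 peaks and replicate 2 had 2 among 31671. On the log2 scale the group means of these counts differed by 12.46 (two-sided exact permutation test, p = 0.333, n = 2 libraries per group). With 2 libraries against 2 the test has 6 arrangements and 0.333 is the smallest p it allows, so no comparison of the groups could pass 0.05. A p of 0.333 here says only that the groups did not overlap, whatever the size of the difference. No source used here says whether the replicates came from separate cultures, so the spread between these libraries may be technical. Intervals below are exact binomial 95% intervals and cover counting error only.

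Reads outside peaks are not in the lists, and the depth of the libraries is therefore unknown. The scale of input implied by the deposited folds, in reads per input read, was 4.74 and 3.62 for the K119-K4 replicates and 0.797 and 1.01 for IgG-IgG, and whether it follows depth was not tested. With the minimum scaled by it, to 60 and 46 reads in K119-K4 and to 10 and 13 reads in IgG-IgG, 6219 and 3450 peaks stood against 1 and 1. Counted at every size, IgG-IgG had more peaks than K119-K4 had peaks of 10 or more reads, and 96.1% and 95.5% of the IgG-IgG peaks held just 2 reads.

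Sequences at some of these loci are shown for their CpG content. Below are the 250 bases before the canonical start of MTCL1, PPP1R9B and TNRC18, which are among the 5 genes with most K119-K4 reads, of IRS1, which had the widest promoter peaks by the narrower replicate, and of DPPA2, which had no promoter peak in any of the 4 libraries. They are shown 5′ to 3′ on the strand of the gene, from RefSeq promoters of build GRCh38.p14, and CpG dinucleotides are in capitals. The stretch of TNRC18 lies inside the gene, downstream of its outermost start, and the others lie just outside their genes.
MTCL1, chr18:8705306-8705555, plus strand: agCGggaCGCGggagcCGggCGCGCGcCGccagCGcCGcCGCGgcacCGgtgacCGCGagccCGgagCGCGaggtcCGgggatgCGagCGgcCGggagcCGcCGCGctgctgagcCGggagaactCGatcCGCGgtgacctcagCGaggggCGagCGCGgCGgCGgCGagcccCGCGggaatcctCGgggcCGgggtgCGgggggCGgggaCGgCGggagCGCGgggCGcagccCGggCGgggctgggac
PPP1R9B, chr17:50150678-50150927, minus strand: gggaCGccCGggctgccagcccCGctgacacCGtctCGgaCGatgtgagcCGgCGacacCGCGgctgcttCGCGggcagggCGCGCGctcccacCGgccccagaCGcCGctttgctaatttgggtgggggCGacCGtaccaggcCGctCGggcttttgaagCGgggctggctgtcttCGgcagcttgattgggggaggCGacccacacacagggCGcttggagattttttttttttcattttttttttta
TNRC18, chr7:5423835-5424084, minus strand: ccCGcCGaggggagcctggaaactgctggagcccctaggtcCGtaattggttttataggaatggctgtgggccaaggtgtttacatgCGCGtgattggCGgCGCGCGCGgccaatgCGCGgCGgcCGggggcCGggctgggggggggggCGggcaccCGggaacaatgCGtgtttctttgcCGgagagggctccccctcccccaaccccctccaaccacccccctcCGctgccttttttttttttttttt
IRS1, chr2:226799821-226800070, minus strand: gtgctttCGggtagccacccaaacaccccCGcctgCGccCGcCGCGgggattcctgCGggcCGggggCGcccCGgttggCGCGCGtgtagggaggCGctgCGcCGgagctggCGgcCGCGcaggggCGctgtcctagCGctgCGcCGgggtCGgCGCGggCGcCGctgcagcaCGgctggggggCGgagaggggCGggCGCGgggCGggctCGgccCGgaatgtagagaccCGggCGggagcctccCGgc
DPPA2, chr3:109316518-109316767, minus strand: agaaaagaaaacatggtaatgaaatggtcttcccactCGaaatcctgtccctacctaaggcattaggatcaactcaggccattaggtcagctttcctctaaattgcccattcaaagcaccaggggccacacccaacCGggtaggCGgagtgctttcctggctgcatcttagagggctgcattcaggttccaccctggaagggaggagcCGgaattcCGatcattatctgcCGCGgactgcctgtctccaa

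The motif searched was CG, which reads the same on both strands. The stretch before MTCL1 held 49 CpG, before IRS1 39, before PPP1R9B 26, before TNRC18 20 and before DPPA2 7. Of 35116 RefSeq promoter stretches of the same length, 93.9% held at least 1 CpG, and the median was 11. As many CpG or more were held by 0.205% of the stretches for MTCL1, 2.65% for IRS1, 19.6% for PPP1R9B, 32.4% for TNRC18 and 58.9% for DPPA2. K119-K4 peaks of both replicates covered all 250 bases before MTCL1, PPP1R9B and IRS1. At TNRC18 they covered none of them, because the peak of each replicate ended 34 bp inside the gene, downstream of the start.

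Of the 3 IgG-IgG peaks of 10 or more reads, those on chromosomes 2 and 7 are shown, and they do not stand for the other one. The 2 peaks of IgG-IgG replicate 2 had a median of 3.75 CpG per 100 bp. The first bases, at most 300, are given on the plus strand of hg38, with the longest run of 1 base in capitals.
IgG-IgG replicate 1, chr2:32866701-32867000: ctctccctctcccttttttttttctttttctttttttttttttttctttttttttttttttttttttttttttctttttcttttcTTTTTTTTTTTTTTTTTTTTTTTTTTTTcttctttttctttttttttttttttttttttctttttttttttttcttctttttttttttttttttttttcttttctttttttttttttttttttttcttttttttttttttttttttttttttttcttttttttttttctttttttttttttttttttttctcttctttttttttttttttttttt
IgG-IgG replicate 2, chr7:106101301-106101500: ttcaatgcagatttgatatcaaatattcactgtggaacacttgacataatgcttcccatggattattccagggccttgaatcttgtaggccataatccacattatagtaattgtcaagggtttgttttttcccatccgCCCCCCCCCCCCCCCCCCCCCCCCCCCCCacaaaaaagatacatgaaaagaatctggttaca

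The peak on chromosome 2, from 32866701 to 32867200, held 70 reads and no input read in IgG-IgG replicate 1. It lies in an intron of the long noncoding RNA gene LINC00486, the 300 bases shown consist of T and C alone, with T at 90.3%, and 70 bases at its far end are unknown in the assembly. K119-K4 replicate 2 also had 37 reads in a peak there, replicate 1 had 2, and IgG-IgG replicate 2 had no peak. The peak on chromosome 7, from 106101301 to 106101500, held 12 reads and 6 input reads in an intron of SYPL1 and spans a run of 29 C. No other library had a peak there.

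Whether a K119-K4 peak lay at a promoter followed the number of reads in it. Promoter windows reached 1500 bp up and down from every annotated start of the 19970 protein-coding genes in GENCODE v44, and they held 6.04% of the known bases. Of the peaks of 10 or more reads, 90.4% (89.8 to 91.0%) lay at promoters in K119-K4 replicate 1 and 93.4% (92.8 to 94.0%) in replicate 2, and none of the 1 and 2 IgG-IgG peaks did (p = 0.333, exact permutation). With 1 start per gene in place of every start, the K119-K4 shares were 77.3% and 79.9%. The read minimum decides how many peaks enter, so the share was taken at each number of reads as well.

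At 2 reads the shares of K119-K4, 8.62% and 7.87%, were near those of IgG-IgG, 7.49% and 7.22%. The groups did not overlap, but the difference of means was 0.890 percentage points (p = 0.333, exact permutation). At 5 to 9 reads the K119-K4 replicates reached 30.2% (28.3 to 32.3%) and 29.0% (27.5 to 30.6%). IgG-IgG stayed at 6.38% (3 of 47 peaks) and 7.89% (3 of 38 peaks) at the same number of reads. The difference of means there was 22.5 percentage points (p = 0.333, exact permutation). At 10 to 19 reads the K119-K4 shares were 71.9% and 81.7%, and at 200 or more they were 97.1% and 97.7%. Peaks of equal reads differed in input. Each listed peak had passed an FDR below 0.05 against scaled input, so input also decided which peaks were listed. At 5 to 9 reads, 100% and 86.3% of the K119-K4 peaks had no input read, against 44.7% and 34.2% in IgG-IgG. At 10 to 19 reads it was 25.8% and 17.8% in K119-K4. The part of input in the climb of promoter share, or of CpG content below, was not tested.

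**Figure D1:**
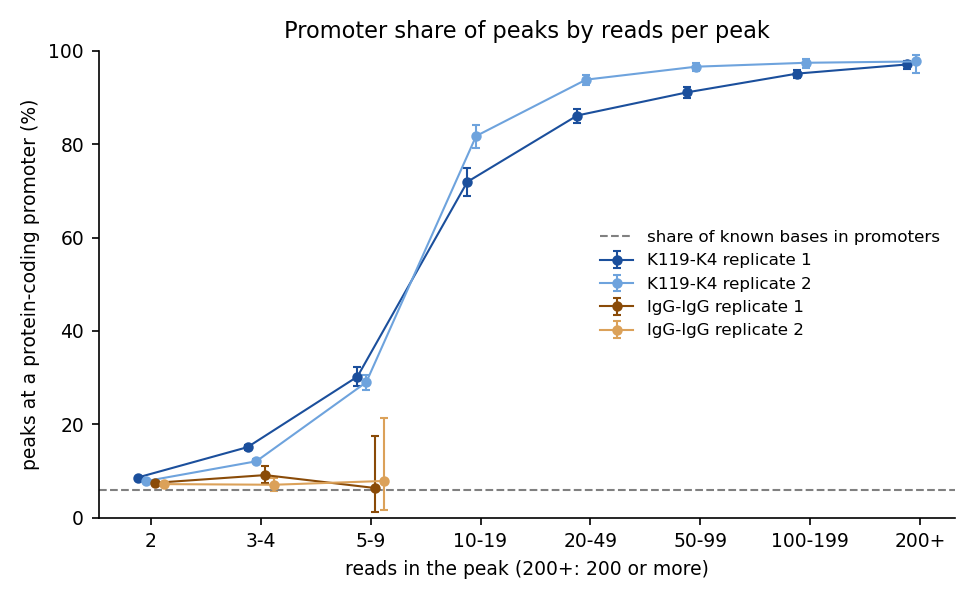
Share of peaks at a protein-coding promoter (vertical axis, %) by reads in the peak (horizontal axis), 1 line per library, with exact binomial 95% intervals as bars. Classes under 10 peaks are left out and the dashed line is the 6.04% of known bases in promoters. Both K119-K4 replicates climb from 8.62% and 7.87% at 2 reads to 97.1% and 97.7% at 200 or more, and both IgG-IgG lines stay between 6.38% and 9.15%.

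CpG content climbed with the reads in the same way. The median was 1 CpG per 100 bp in K119-K4 peaks of 2 reads in both replicates, as in IgG-IgG. It was 2.4 and 2 at 5 to 9 reads, 6.57 and 7.57 at 10 to 19 reads, and 8.32 and 8.50 at 200 or more. IgG-IgG peaks of 5 to 9 reads had 1 and 1.27 CpG per 100 bp. Median GC content of the K119-K4 peaks of 10 or more reads was 65% and 66.1%.

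Reads and input were counted per peak against genomic input. The peaks of 10 or more reads held a median of 84 reads (interquartile range 41 to 164) in K119-K4 replicate 1 and 49 (27 to 87) in replicate 2. Their median input was 5 and 4 reads. The 1 IgG-IgG peak of replicate 1 held 70 reads, above the median of K119-K4 replicate 2, and the median of the 2 peaks in replicate 2 was 15.5 (difference 0.96 on the log2 scale, p = 0.667, exact permutation). The groups overlapped in this measure, and without IgG-IgG replicate 2 its sign turned, to -0.13.

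Of the K119-K4 peaks of 10 or more reads, 3.90% (3.53 to 4.30%) and 4.31% (3.82 to 4.83%) had no input read. This was true of the 1 IgG-IgG peak of replicate 1 and of neither in replicate 2 (difference of means -45.9 percentage points, p = 1, exact permutation). Without IgG-IgG replicate 1 the sign turned, to 4.10. The smallest peak with an input read had 10 and 8 reads in K119-K4, and 3 and 3 in IgG-IgG. None of the 2074 peaks of 5 to 9 reads in K119-K4 replicate 1 had an input read, whereas in replicate 2, 86.3% of 3298 had none. Peaks were listed only if they passed the FDR at the library's own scale of input. These shares therefore cannot be told apart from the calling of peaks.

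Widths were in steps of 100 bp. The median width of the peaks of 10 or more reads was 1300 bp (900 to 1900) in K119-K4 replicate 1 and 1200 bp (900 to 1600) in replicate 2. In IgG-IgG it was 500 bp for 1 peak and 300 bp for 2, and the groups did not overlap (difference 1.69 on the log2 scale, p = 0.333, exact permutation). Peaks of 1100 to 2000 bp were the most common class in K119-K4, with 45.2% and 47.2% of the peaks. Wider peaks were also denser in reads. Median density was 37.5 and 32 reads per kb at 100 to 500 bp, and 103 and 61.3 at 4100 bp or more. Median input density was 2 in both replicates in the narrowest class and 4.66 and 5.22 reads per kb in the widest.

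Around gene starts the K119-K4 peaks lay mostly downstream. Of the peaks over exactly 1 canonical start, 5767 and 3478 in number, 87.9% and 91.6% reached farther into the gene than before it. They extended a median of 1104 bp and 1092 bp downstream, with interquartile ranges of 840 to 1451 bp and 840 to 1411 bp. Upstream they extended 375 bp (88 to 738) and 161 bp (51 to 517). Replicates were close downstream and apart upstream. Coverage was highest 200 bp and 300 bp inside the gene, where peaks lay over 40.8% and 27.7% of canonical starts. At 1000 bp downstream it was 22.9% and 15.9%, and at 1000 bp upstream 8.33% and 4.05%. IgG-IgG peaks of every size covered at most 0.275% and 0.290% of starts at any distance within 5000 bp.

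**Figure D2:**
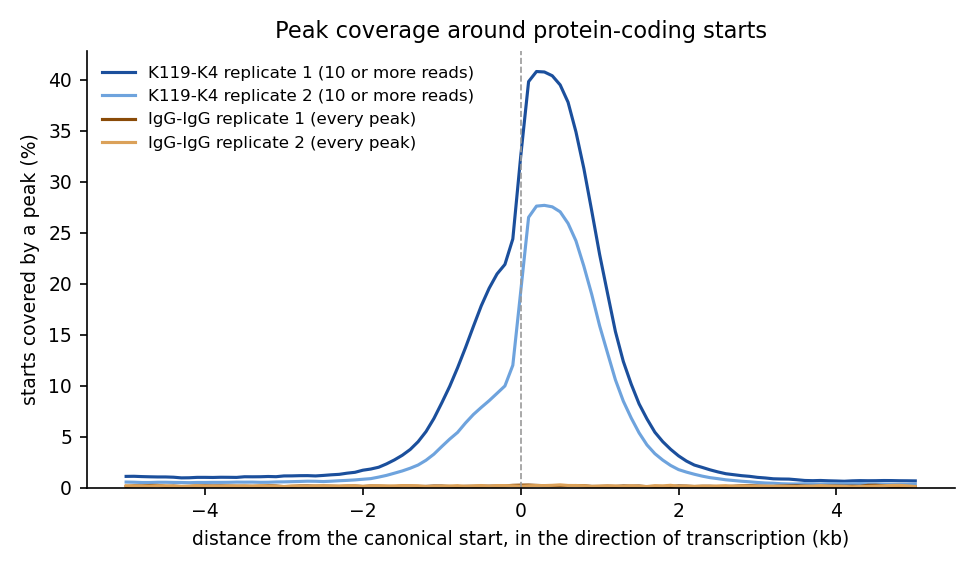
Share of canonical protein-coding starts covered by a peak (vertical axis, %) against distance from the start in the direction of transcription (horizontal axis, kb), for K119-K4 peaks of 10 or more reads and IgG-IgG peaks of every size. The K119-K4 lines peak inside the gene, at 40.8% and 27.7%, with a shoulder upstream, and the IgG-IgG lines stay at or under 0.290%.

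Peaks away from protein-coding promoters were few. Promoters of long noncoding RNA genes took 4.22% and 3.14% of the K119-K4 peaks of 10 or more reads. Introns held 1.18% and 1.04%, exons 0.881% and 0.575%, and intergenic stretches 2.6% and 1.37%. Among these, the peak of most reads lay at chr21:8988601-9007200, with 2144 reads and 284 input reads over 18600 bp in K119-K4 replicate 2. It had no peak in replicate 1, held 0.957 CpG per 100 bp, and IgG-IgG replicate 2 had a peak of 2 reads in it. At chr5:471501-476500 both replicates had peaks, of 1022 and 375 reads, over starts of the long noncoding RNA genes PP7080 and SLC9A3-AS1. At chr17:81342501-81347200 lies RENO1, another long noncoding RNA gene, where replicate 1 held 554 reads in 1 peak and replicate 2 held 227 in 2 peaks. Neither IgG-IgG library had a peak at these loci on chromosomes 5 and 17.

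Replicates were compared peak by peak. Of the peaks of 10 or more reads in replicate 1, 61.3% (60.3 to 62.2%) overlapped one in replicate 2. In the other direction it was 95% (94.4 to 95.5%). The share rose with reads in replicate 1, from 11.8% at 10 to 19 reads over 57.1% at 50 to 99 to 96.3% at 200 or more. These shares count only replicate 2 peaks of 10 or more reads, and replicate 2 held fewer reads. With replicate 2 peaks of any size they were 47.8%, 64.2% and 96.5%. The part of the read minimum in the rise was not tested. Replicate 1 peaks without a replicate 2 peak of 10 or more reads held a median of 42 reads over 1000 bp. Those with one held 129 reads over 1500 bp. Counting replicate 2 peaks of any size, 70.8% of these replicate 1 peaks overlapped one. Across 5854 pairs of peaks that overlapped one to one, replicate 1 had more reads by a median of 1.24 on the log2 scale (SD across pairs 0.551). Their reads had a Spearman correlation of 0.891 and their widths 0.728, across peaks, which share chromatin and base composition and are not independent. In the 299 pairs with identical borders the input count was the same in both replicates, so the replicates were not independent in input.

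Of 2056 genes with any IgG-IgG peak at a promoter in replicate 1 and 2139 in replicate 2, 364 had one in both, and the strongest of these peaks held 7 reads. An IgG-IgG peak of any size from either replicate overlapped 4.46% (4.06 to 4.88%) of the K119-K4 peaks of 10 or more reads in replicate 1 and 3.96% (3.50 to 4.47%) in replicate 2. Most of these IgG-IgG peaks held 2 reads, 206 of 216 and 218 of 234 in those that met replicate 1. IgG-IgG peaks lay at 14.4 to 16.3 per Mb inside the K119-K4 peaks, against 9.83 and 10.9 per Mb of known genome. The K119-K4 peaks they met were wider, with medians of 1700 bp against 1300 bp in replicate 1. A wider peak has more bases open to an overlap, and the part of width was not tested.

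A K119-K4 peak of 10 or more reads lay at a promoter of 9410 protein-coding genes in replicate 1, which is 47.1% of 19970. In replicate 2 it was 6559 genes, 32.8%, and in both replicates 6346 genes, 31.8%. No gene had an IgG-IgG peak of that size, of which the IgG-IgG replicates had 1 and 2 in all. In 6187 of these 6346 genes the peaks of the replicates overlapped, and in 159 they lay at different places. The share of genes followed promoter CpG density. In the decile of lowest density, 7.96% and 5.00% of genes were called in K119-K4 replicates 1 and 2, and in the decile of highest density 90.2% and 75.3%. IgG-IgG peaks of any size lay at 8.54% and 7.43% of genes in the lowest decile and at 12.4% and 13.2% in the highest. The genes found in both replicates held medians of 127 and 51 reads in the lowest decile and 251 and 93 in the highest. In decile 5 the medians were lower, at 67 and 31 reads. CpG density was taken at the gene start, whereas a peak could lie at any annotated start.

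**Figure D3:**
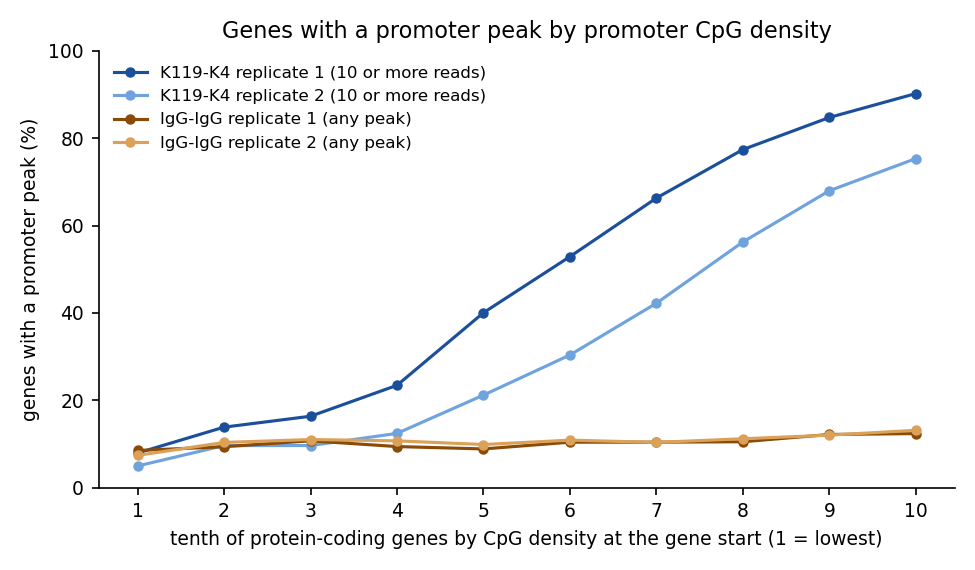
Share of protein-coding genes with a promoter peak (vertical axis, %) in deciles of genes by CpG density within 1500 bp of the gene start (horizontal axis), for K119-K4 peaks of 10 or more reads and IgG-IgG peaks of any size. K119-K4 goes from 7.96% and 5.00% to 90.2% and 75.3%, and IgG-IgG stays between 7.43% and 13.2%.

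The genes with most reads in both replicates were a mixed group. MTCL1, a microtubule crosslinking factor gene, held 1445 reads in replicate 1 and 778 in replicate 2, in peaks of 3600 bp and 2700 bp over its start. PPP1R9B, which encodes the scaffold protein spinophilin, held 1375 and 750 reads, with 22 and 24 input reads. TNRC18, a trinucleotide repeat containing gene, held 1710 and 672. In each of the 3 genes replicate 1 held more reads than replicate 2, and neither IgG-IgG replicate had a peak in the K119-K4 peaks. IgG-IgG replicate 2 had peaks of 2 reads within the K119-K4 peaks of IRS1, PCDH7 and RNF2, which are described below.

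NKX2-1, the homeobox factor that specifies lung and thyroid epithelium, held 1266 and 768 reads in a peak that also covers the start of its neighbour SFTA3, so the pair rests on 1 peak per replicate. The peak was 5400 bp and 5100 bp wide. Its input was high, at 94 and 78 reads, which is 17.4 and 15.3 per kb against 4.50 and 4.31 per kb over all K119-K4 peaks of 10 or more reads. The part of this input in the read count was not tested.

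Ranked by the narrower replicate, the widest promoter peaks beside those of NKX2-1 and SFTA3 lay at IRS1, OSR2 and PCDH7. IRS1, the insulin receptor substrate gene, had peaks of 6000 bp and 5700 bp with 684 and 470 reads. OSR2, an odd-skipped zinc finger gene of limb and palate, had peaks of 6000 bp and 5600 bp with 626 and 281 reads. PCDH7, a protocadherin gene, had peaks of 5100 bp and 5300 bp with 506 and 354 reads. Replicate 1 again held more reads than replicate 2 at all 3.

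Gene lists were read against the background of 31.8% of genes called in both replicates, by counts with no test, since the lists were drawn up with results of these data known. Genes of a list can share a promoter. The median of the lower read count of the replicates over all protein-coding genes was 2. Median promoter CpG density over all genes was 3.70 per 100 bp. It was 6.53 for Wnt genes, 5.40 for PRC2, 5.30 for H2AK119 deubiquitination, 4.93 for the demethylases, 4.60 for HOX, 3.93 for pluripotency and germline, and 2.07 for lung epithelium, and it is given with the other lists below except SWI/SNF, where it was 5. Its part in the counts was not tested.

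Most genes of PRC1, the complex that places the first antibody's mark, had K119-K4 peaks. Of 26 PRC1 subunit genes 20 had a peak of 10 or more reads in both replicates, which is 76.9% (56.4 to 91.0%), with a median of 52.5 for the lower read count and 5.60 CpG per 100 bp. BCORL1 and BCOR, corepressor subunits of PRC1.1, stood highest by the lower replicate. BCORL1 held 684 and 264 reads over 5100 bp and 4800 bp, and BCOR held 509 and 281 reads over 4900 bp and 5100 bp. RNF2, the catalytic subunit RING1B, chosen for its role after its values were seen, held 322 and 117 reads, and RING1, its paralog, held 104 and 2. The subunits without a peak of that size in both were CBX7, L3MBTL2, MGA, PCGF1, PHC1 and RING1. KDM2B was counted although the peaks of its replicates did not overlap.

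Of 13 PRC2 subunit genes 9 were called in both replicates, 69.2% (38.6 to 90.9%). EZH2, the H3K27 methyltransferase, held 398 and 191 reads, and EPOP, an accessory subunit, 663 and 154. EED, EZH1, MTF2 and RBBP4 were not called in both. JARID2 was counted although the peaks of its replicates did not overlap. Of 13 genes of H2AK119 deubiquitination 5 were called, 38.5% (13.9 to 68.4%), with FOXK1 at 629 and 250 reads and FOXK2 at 384 and 139 reads, both partners of BAP1. BAP1, the deubiquitinase itself, named for its role after its values were seen, held 30 and 3 reads.

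Genes of H3K4 methylation, whose trimethylated form was bound in the second round, were also mostly called, and the list includes accessory subunits. Of 17 genes of H3K4 methylation 12 were called, 70.6% (44 to 89.7%), with 6.03 CpG per 100 bp. KMT2D held 453 and 242 reads and KMT2A 431 and 207 reads, both methyltransferases. ASH2L and RBBP5 had no promoter peak of any size in K119-K4. Of 5 genes of H3K4 and H3K36 demethylases 3 were called, with KDM5B, which removes H3K4me3, at 522 and 238 reads and KDM2A, a CpG-binding H3K36 demethylase, at 179 and 82. Of 27 SWI/SNF subunit genes 18 were called, 66.7% (46.0 to 83.5%). ARID1A held 812 and 384 reads and DPF1 660 and 328, the latter in a peak 2879 bp and 3579 bp from its canonical start.

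HOX and other homeobox genes were called in both replicates at a share near the background, while replicate 1 by itself called more of them. Of 39 HOX genes 13 were called in both replicates, 33.3% (19.1 to 50.2%). In replicate 1 it was 27 of 39, against 47.1% of all genes, and in replicate 2 it was 13, against 32.8%. HOXC13 held 568 and 234 reads and HOXB9 362 and 160. HOXA13, a distal limb gene, shows the split between replicates, chosen after its values were seen: its replicate 1 peak held 105 reads over 2700 bp and its replicate 2 peak 2 reads. HOXA3 and HOXA5 share 1 peak in replicate 1, as do HOXA9 and HOXA10, HOXB3 and HOXB4, HOXB7 and HOXB8, HOXC6 and HOXC9, and HOXD10 and HOXD11, so these genes are not independent. At HOXA3 and HOXC9 the replicates' peaks lay at different starts.

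Of 51 other developmental homeobox and PAX genes 17 were called in both replicates, 33.3% (20.8 to 47.9%), 30 in replicate 1 and 19 in replicate 2. Their promoters held 5.76 CpG per 100 bp. NKX2-1 led them, and SIX3, a forebrain and eye regulator, followed with 829 and 588 reads over 3600 bp and 3500 bp and 10 input reads in each replicate. Of 31 Wnt ligand and receptor genes 17 were called, 54.8% (36 to 72.7%). FZD8 held 606 and 282 reads. WNT5B held 612 and 232 reads in a peak at a distant alternative start, 96431 bp and 96831 bp from the canonical one, and that peak cannot be tied to WNT5B over other genes there.

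Of 35 genes of TGF-beta and BMP signaling 27 were called, 77.1% (59.9 to 89.6%), the highest share of the lists, with 6.10 CpG per 100 bp. SMAD6, an inhibitory SMAD, held 1134 and 573 reads, and ID4, a BMP target that inhibits basic helix-loop-helix factors, held 836 and 529 reads over 2100 bp and 2300 bp. Of 24 pluripotency and germline genes 6 were called, 25% (9.77 to 46.7%): L1TD1, LIN28B, SALL4, SOX2, TFAP2C and TRIM71. TFAP2C, the AP-2 gamma gene, held 991 and 491 reads, and SALL4, a zinc finger gene of early embryos, 315 and 153 with 28 and 26 input reads. DPPA2 had no promoter peak in any library. DPPA4 had 1 of 2 reads in K119-K4 replicate 1 and another of 2 reads, elsewhere, in IgG-IgG replicate 1.

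Housekeeping genes stood near the background. Of 81 cytoplasmic ribosomal protein genes 28 were called, 34.6% (24.3 to 46.0%), and of 48 proteasome genes 17, 35.4% (22.2 to 50.5%). RPL7 held 427 and 261 reads in peaks 468 bp and 868 bp from its canonical start, and RPL13 held 317 and 184. PSMA7 held 974 and 457 reads, and PSMG2 333 and 140 in a peak 44242 bp from its canonical start. Their median promoter CpG densities were 4.07 and 3.47 per 100 bp. Reads of ribosomal protein genes can be shared with processed pseudogenes.

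Lists of genes of other tissues were almost without K119-K4 peaks of 10 or more reads, and a lung epithelium list had few. Of 413 olfactory receptor genes none was called in both replicates, which allows a share of up to 0.889% by the exact interval, and 1 was in replicate 1. None of 94 keratin-associated protein genes and none of 23 genes of blood and immune cells had a peak of 10 or more reads in either replicate. Their promoters held 0.666, 0.866 and 1.53 CpG per 100 bp. IgG-IgG peaks of any size lay at 34, 10 and 9 genes of these lists. Of 23 genes of lung epithelium 5 had a peak of 10 or more reads in replicate 1 and 1 did in both replicates. This was EPCAM, an epithelial adhesion gene, with 141 and 38 reads. NKX2-1 and SFTA3, described above, were not on this list. Peaks do not measure expression, and the identity of the line was not checked from them.

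**Figure D4:**
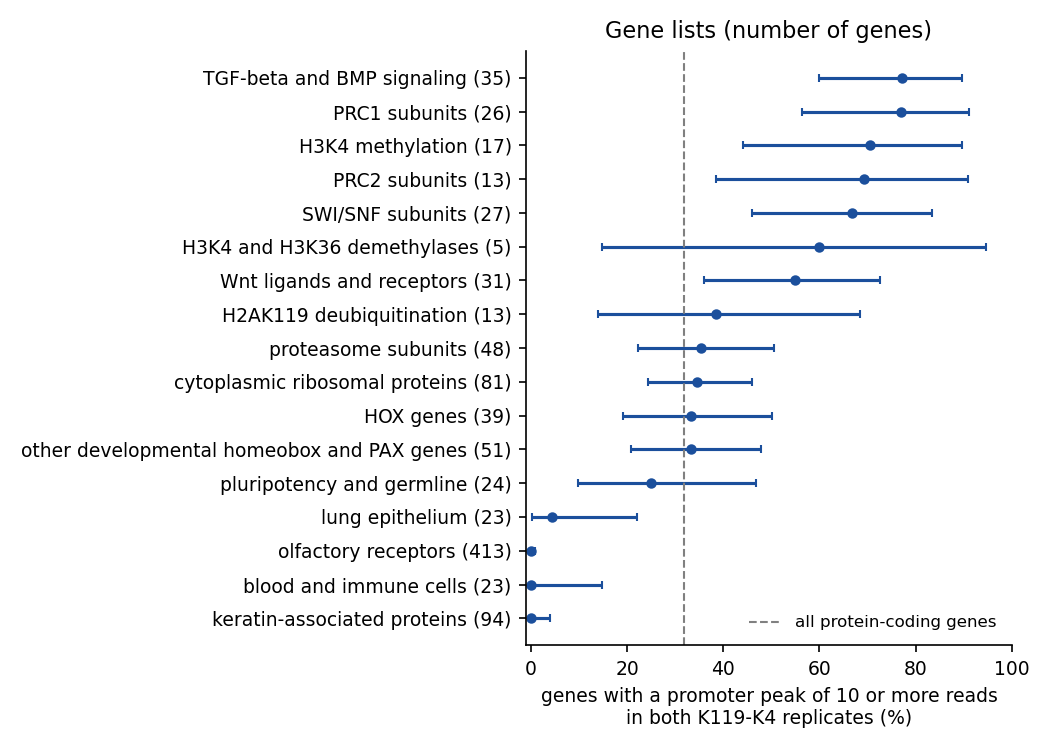
Share of each list's genes with a promoter peak of 10 or more reads in both K119-K4 replicates (horizontal axis, %), with exact binomial 95% intervals as bars, list sizes in parentheses and the dashed line at 31.8% of all protein-coding genes. TGF-beta and BMP signaling and PRC1 subunits lie at 77.1% and 76.9%, HOX and other homeobox genes at 33.3% beside the line, and 3 lists at 0.

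Some genes had a promoter peak in 1 K119-K4 replicate and none in the other. Of 1296 genes with 10 or more reads in replicate 1 and no promoter peak in replicate 2, 22 nevertheless had a replicate 2 peak over that of replicate 1, outside the promoter windows of the gene. In the other direction this held for 2 of 111 genes. LIME1, a T cell adaptor gene, is one of the 22, with 718 reads in replicate 1 and 211 in a replicate 2 peak that overlaps it. The replicate 1 peak of LIME1 lay 1937 bp from its canonical start. SLC9A3, a sodium and proton exchanger gene, held 423 reads with 37 input reads, and BCL2L11, which encodes the apoptosis activator BIM, held 343 reads with 49 input reads over 6100 bp. Replicate 2 had no peak over that of SLC9A3 or BCL2L11. Of genes found at the promoter in replicate 2 alone, BAG4 held 64 reads with 13 input reads and had no overlapping peak in replicate 1. TMC8, with 75 reads, and the gene ENSG00000288699, with 65, are the 2 with an overlapping peak in replicate 1, where these held 226 and 103 reads. Their replicate 2 peaks lay 1371 bp and 1475 bp from the canonical starts.

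Of 1841 peaks of 200 or more reads in replicate 1, 64 had no peak of any size in replicate 2. They held a median of 7.26 input reads per kb against 4.71 in the other 1777, and a deposited log2 fold over input of 1.39 against 2.68. Median read density was 92.8 per kb against 144. In replicate 2, 2 of 305 such peaks were missing from replicate 1, both on chromosome 21. Their median input was 60.6 reads per kb against 5.2 in the other 303, and their median log2 fold over input 1.24 against 2.50. The part of input in these differences was not tested.

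**Figure D5:**
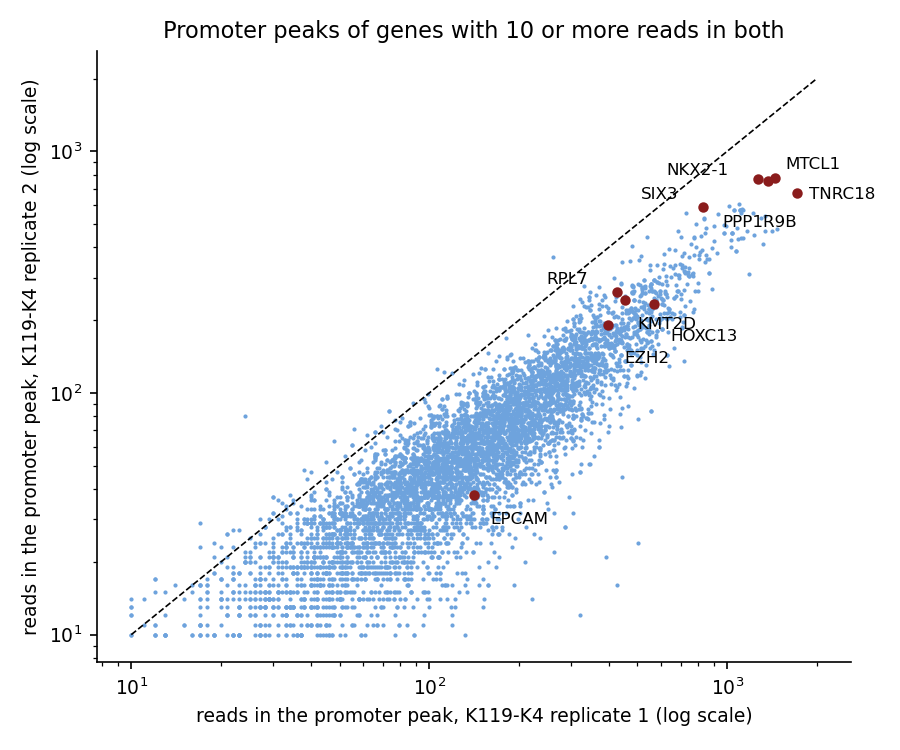
Reads in the promoter peak of K119-K4 replicate 1 (horizontal axis) and replicate 2 (vertical axis), both on log scales, 1 point per protein-coding gene with 10 or more reads in both, 6346 in all, with a dashed line of equality. The labelled genes run from EPCAM, at 141 and 38 reads, to TNRC18, at 1710 and 672, and all lie below the line.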

How the data were processed

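Per the submitters' processing notes, trimming was by Trim Galore 0.6.6 and alignment by BWA 0.7.13, with hg38 as the build, and SAMtools 1.9 and Picard 2.6.0 were also run. The authors called peaks in each replicate with EPIC2 0.0.52 against genomic input, in bins of 100 bp with 1 gap allowed, a fragment size of 147 bp and an FDR below 0.05. The deposited counts of reads and input reads per peak are whole and unscaled. Each p-value and FDR deposited with a peak sets it against input within 1 library, and the deposited log2 values are folds over scaled input. The score deposited by the authors was not used.

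The K119-K4 and IgG-IgG lists were used whole, and the third group of the series was not used. An IgG-IgG locus is not reported here. No blacklist was applied, and peaks of 2 reads were kept for background. Replicates are numbered in the labels, and the methods call them independent. A gene was given its promoter peak of most reads, whatever start it lay at. Genes named in the text are the 5 of most reads and the 5 widest by the lower replicate, up to 2 per list, 3 per replicate with no peak in the other, DPPA2 and DPPA4. RNF2, RING1, BAP1, HOXA13, KDM2B, JARID2 and genes named as sharing peaks or as not called were added after their values were seen. The members, lists and rules were chosen with earlier results of these data known.

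Groups were compared by exact permutation over libraries. Alternatives were other read minimums, folds, FDR, input, overlaps and promoters, each library left out and a replicate block. Overlaps were checked on simulated peaks, of which all 1100 at promoters were found. Tables were handled with pandas 2.3.3 and numpy 2.4.6 in Python 3.11.15, tests run with scipy 1.17.1 and plots drawn with matplotlib 3.10.9. Replicate numbers are shared between groups, but nothing names a shared day or batch, and 2 pairs are too few to check pairing.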

Additional observations from a re-analysis of the deposited data

Results flagged for a closer look

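K119-K4 peaks of 10 or more reads also lay outside chromosomes 1 to 22 and X, where no comparison was made. There were 6 in replicate 1 and 3 in replicate 2, all on chromosome Y, and IgG-IgG had 0 in each replicate. IgG-IgG had 46 and 70 smaller peaks there and the K119-K4 lists 371 and 906 peaks in all. The cause was not tested.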

How the results depend on the processing

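No alternative brought a comparison of the groups past 0.05, which 2 libraries a group cannot reach, and the cause of each change below was not tested. Counting every IgG-IgG peak against K119-K4 peaks of 10 or more reads turned the log2 difference in number from 12.46 to -1.92 (chosen after seeing the data). These cuts were unequal, and with every peak of both groups counted the log2 difference was 2.48. Leaving out 1 library gave log2 differences of 11.96 to 12.96 in number of peaks, 1.32 to 2.06 in width and -0.13 to 2.05 in reads, and 90.4 to 93.4 percentage points in promoter share. For peaks without input reads it gave -95.9 to 4.10. With numbers shared between groups alone, a replicate block left the differences at 12.46, 91.9, 1.69, 0.96 and -45.9, as equal group sizes require, with exact p of 0.5, or 1 for the last. At a minimum of 20 or 50 reads IgG-IgG replicate 2 had no peak, and with at least 1 input read replicate 1 had none, so no difference could be formed. The share of replicate 1 peaks found in replicate 2 was 61.3%. It was 54.0% for overlap over 50% of both, 55.2%, 58.7% and 46.3% at minimums of 5, 20 and 50 reads, 57.5% at a log2 fold above 1 and 59.9% at an FDR below 0.01. The share of replicate 2 in replicate 1, 95%, was 93.8% and 82.9% for overlap over 25% and 50%, 68.9%, 98.3% and 99.7% at the same minimums and 91.4% at a log2 fold above 1. IgG-IgG peaks of at least 3 reads overlapped 0.253% and 0.249% of the K119-K4 peaks, overlap over 25% of both left 0.253% and 0.357%, and a minimum of 50 reads gave 5.14% and 4.48%. Genes called in both replicates numbered 3467 at a minimum of 50 reads, and between 4931 and 6808 under the other settings that kept both replicates. With 1 start per gene the promoter share at 10 or more reads differed by 78.6 percentage points, against 91.9 with every start. At 2 reads it differed by 0.220 percentage points with 1 start per gene, and BCOR, ARID1A and EPCAM were lost. SALL4 was lost at a log2 fold above 1, and TNRC18 fell to 63 reads with 1 start per gene.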

Other observations

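The share of protein-coding genes with a K119-K4 promoter peak of 10 or more reads in both replicates ranged over chromosomes from 20.3% on X, of 859 genes, to 43.6% on chromosome 22, of 447 genes. Median promoter CpG density was 3.10 per 100 bp on X and 4.23 on chromosome 22. Chromosome 19 had the most K119-K4 peaks of 10 or more reads per Mb, 12.1 and 7.42, while IgG-IgG peaks of any size lay there at 11.4 and 12.7 per Mb. Input inside the K119-K4 peaks of 10 or more reads was lowest on X in both replicates, at 2.86 and 3.01 reads per kb, and on chromosome 20 it was 6.29 and 5.97.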
